A study of Mus musculus with 10 samples.

Results

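The transcripts described here are 34 genes of the mitotic spindle and of the G2/M phase of the cell cycle, measured by RNA-seq in hepatocytes that had been isolated from the livers of male mice. The genes were chosen by name, as a set that works together in mitosis, with earlier results of these data known. Shares of all genes set beside them below are therefore a description and not a test. Each gene was found by its Ensembl identifier in the table of 21939 genes. All 34 were in the table and all 34 were kept for testing, which required 10 or more counts over the 10 libraries together and kept 13641 genes in all. Each of the 10 libraries came from 1 mouse. The genotypes were wild-type C57BL/6J mice (control, n = 3), mice with floxed Nrf2 alleles (Nrf2 KO, n = 2), mice with floxed p65 alleles (p65 KO, n = 2) and mice with floxed alleles of both genes (DKO, n = 3). Every mouse, controls included, was 8 to 9 weeks old and had received AAV8Cre, an adeno-associated virus whose Cre recombinase is driven by the thyroxine-binding globulin promoter, which is active in hepatocytes. The cells were isolated 12 days later by Liberase perfusion, low-speed centrifugation and a Percoll step, and the promoter is not meant to delete the alleles in other liver cells. The study asked how the transcription factors Nrf2 and p65, the latter a subunit of NF-κB, act together in hepatocytes.

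The deposited values were labelled as normalized but were whole numbers with unequal totals, and they were treated as estimated counts. The libraries held 33707165 to 49897382 of these counts, and their relative sizes after normalization were 0.874 to 1.24. The mitotic genes were rare transcripts, with 30 to 543 counts per gene summed over all 10 libraries (median 155), so that many values lay near the floor of detection. Nfe2l2, the gene for Nrf2, had 2099, 2025 and 2131 counts in the control libraries, 4793 and 6192 in the Nrf2 KO, 1962 and 2113 in the p65 KO, and 3908, 3060 and 4579 in the DKO, and Rela, the gene for p65, had 904 to 1515 counts in all libraries. These totals cover the whole gene and do not resolve a floxed exon, so they check neither deletion, and Nrf2 KO, p65 KO and DKO below stand for the libraries labelled so. Fewer cycling cells and less RNA per cycling cell cannot be told apart in such bulk samples.

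Most hepatocytes of an adult mouse are quiescent, and transcripts of mitotic genes accumulate in cycling cells, mostly from S phase to mitosis. Cyclin B bound to the kinase Cdk1 drives entry into mitosis. The spindle checkpoint delays the separation of chromosomes until they are attached to microtubules. The anaphase-promoting complex then targets cyclin B for destruction so that the cell can divide. Many promoters of this class carry CCAAT boxes, which bind NF-Y, together with a CHR element (TTTGAA), through which the DREAM and MuvB complexes repress them in quiescence and activate them in G2.

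These elements were searched in the promoters because the 34 genes share a phase of the cell cycle, a search that was added once their values were known. Promoters were taken from 250 bases before to 50 bases after the annotated start on GRCm39, and both strands were read. TTTGAA was present in 18 of the 34 promoters (52.9%) and in 14% of 13637 promoters of tested genes. CCAAT was present in 23 promoters (67.6%, against 39.7%), and both motifs in 15 (44.1%, against 5.89%). A match of one motif can share at most an end base with a match of the other. By contrast, the NF-κB consensus was present in 3 promoters (8.82%, against 9.85%), and the core of the antioxidant response element bound by Nrf2, TGACNNNGC, in 6 (17.6%, against 13.5%). Neither CCAAT nor TTTGAA was found in 8 promoters, Ccna2, Aurka, Tpx2, Kif2c, Nusap1, Birc5, Nuf2 and Dlgap5. Among 73 other G2/M genes TTTGAA was found in 46.6% and among 50 S phase genes in 8%. A match in these windows is a description of the letters and not a bound site.

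The 150 bases before the start are shown for Top2a, Ccnb2, Cdk1, Aurkb and Hmmr, which have at least 2 CCAAT boxes in that stretch and whose values are described below. They are examples: Ube2c, Cenpf, Bub1, Cdca8 and Ect2 meet the same rule and are not shown. Of those not shown, only Ect2 also holds TTTGAA in that stretch. Each sequence is read 5′ to 3′ along the gene, and the capitals mark CCAAT and TTTGAA or their reverse complements.
Top2a, chr11:98915042-98915191, minus strand: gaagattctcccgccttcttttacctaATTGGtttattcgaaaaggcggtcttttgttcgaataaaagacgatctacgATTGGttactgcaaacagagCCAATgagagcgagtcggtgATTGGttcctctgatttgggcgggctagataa
Ccnb2, chr9:70328875-70329024, minus strand: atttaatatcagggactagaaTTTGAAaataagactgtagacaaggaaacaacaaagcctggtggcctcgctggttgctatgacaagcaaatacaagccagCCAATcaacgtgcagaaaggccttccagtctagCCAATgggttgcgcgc
Cdk1, chr10:69188769-69188918, minus strand: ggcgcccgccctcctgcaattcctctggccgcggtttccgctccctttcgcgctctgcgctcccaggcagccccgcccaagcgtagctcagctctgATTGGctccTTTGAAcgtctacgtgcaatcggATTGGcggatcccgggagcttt
Aurkb, chr11:68936317-68936466, plus strand: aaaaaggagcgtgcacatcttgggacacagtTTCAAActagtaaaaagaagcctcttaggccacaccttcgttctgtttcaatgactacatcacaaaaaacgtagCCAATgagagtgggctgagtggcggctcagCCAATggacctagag
Hmmr, chr11:40624281-40624430, minus strand: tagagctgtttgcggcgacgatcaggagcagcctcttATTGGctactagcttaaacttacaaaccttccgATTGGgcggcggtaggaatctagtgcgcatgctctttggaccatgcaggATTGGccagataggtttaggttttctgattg
Ccnb2, Cdk1 and Aurkb hold both motifs within the 150 bases shown, whereas the TTTGAA of Hmmr lies after the start.

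**Figure D1:**
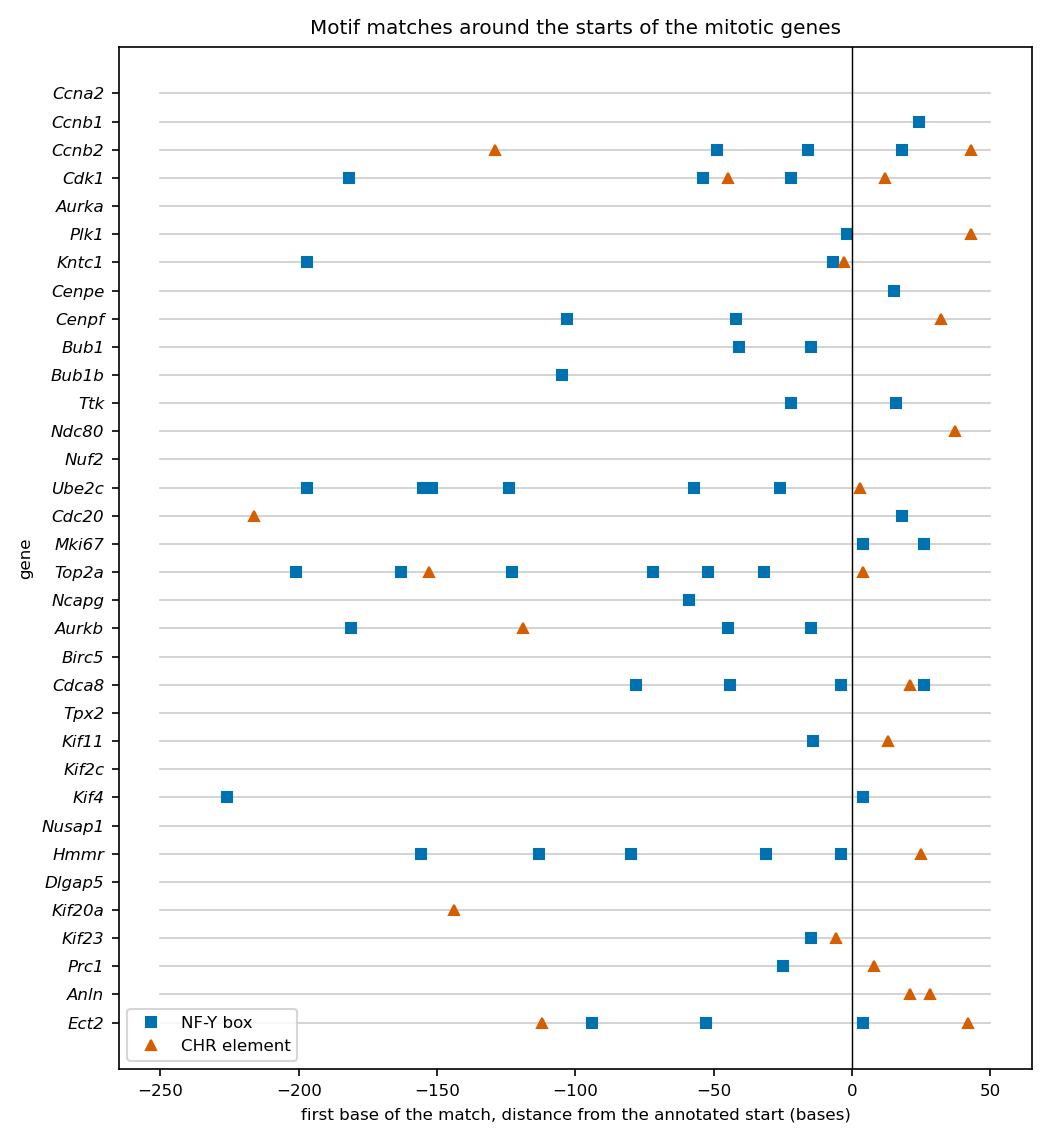
Each line is the window around the annotated start of 1 gene, with the distance from the start in bases on the x axis, and the genes are in blocks by role. Squares are CCAAT boxes (NF-Y) and triangles are CHR elements on either strand, and 8 genes have neither.

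The 34 genes as a group were lowest in Nrf2 KO hepatocytes and highest in p65 KO hepatocytes. Their normalized counts summed to 381, 266 and 486 in the control libraries, 166 and 211 in the Nrf2 KO, 1095 and 1676 in the p65 KO, and 689, 819 and 1353 in the DKO. The sums of the 4 genotypes did not overlap, except that those of the p65 KO and DKO did. The mean of the Nrf2 KO was the lowest of the 4 for 32 of the genes, the mean of the p65 KO was the highest for 28 and that of the DKO for the other 6. Libraries of 1 genotype also differed: p65 KO 2 was above p65 KO 1 for 27 genes, and DKO 3 was the highest DKO library for 25.

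The kinases and cyclins of mitotic entry were called in part. A gene was called where the adjusted p was at most 0.05 and the change at least 1 on the log2 scale (edgeR quasi-likelihood test with Benjamini-Hochberg adjustment over 13641 genes, as for every adjusted p below). Ccnb1, cyclin B1, had 10, 10 and 13 counts in the control, 2 and 1 in the Nrf2 KO, 33 and 68 in the p65 KO, and 14, 30 and 45 in the DKO. Ccnb2, cyclin B2, had 14, 9 and 14 counts in the control, 8 and 7 in the Nrf2 KO, 43 and 75 in the p65 KO, and 30, 27 and 23 in the DKO. Both cyclins rose in the p65 KO over control, Ccnb1 by 2.14 ± 0.571 (log2 fold change ± SE, adjusted p = 0.0314) and Ccnb2 by 2.19 ± 0.434 (adjusted p = 0.0101). Ccna2, cyclin A2, which acts from S phase to early mitosis, had 10, 13 and 12 counts in the control, 4 and 2 in the Nrf2 KO, 38 and 66 in the p65 KO, and 23, 27 and 56 in the DKO, and it too rose in the p65 KO, by 2.10 ± 0.527 (adjusted p = 0.0251). Cdk1, the partner of these cyclins, followed the same order of genotypes without passing the test. It had 26, 31 and 38 counts in the control, 7 and 23 in the Nrf2 KO, 61 and 114 in the p65 KO, and 42, 54 and 87 in the DKO, with a log2 fold change of 1.42 in the p65 KO over control (adjusted p = 0.059). Plk1 and Aurka, kinases that promote entry and centrosome maturation, were not called in any comparison. Plk1 had 2, 3 and 15 counts in the control, 9 and 1 in the Nrf2 KO, 25 and 33 in the p65 KO, and 10, 16 and 14 in the DKO. Aurka had 27, 4 and 19 counts in the control, 12 and 22 in the Nrf2 KO, 30 and 47 in the p65 KO, and 37, 37 and 47 in the DKO. For both, control and Nrf2 KO libraries overlapped and the p65 KO lay above control.

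The spindle checkpoint and kinetochore genes included the 2 with the fewest counts, Ndc80 and Bub1. Kntc1, a part of the complex that brings dynein to kinetochores, had 1 count in each control library, no count in the Nrf2 KO, 35 and 20 counts in the p65 KO, and 11, 7 and 55 in the DKO. The control had 3 counts in all, so the ratio of p65 KO to control is given with its interval, 26.9 (95% exact interval 8.73 to 134, counting error only), and that of DKO to control was 26.8 (8.82 to 133). Kntc1 was called in both comparisons (adjusted p = 0.0216 and 0.0321). Cenpe, a kinetochore motor, had 5, 2 and 4 counts in the control, no count in the Nrf2 KO, 21 and 21 counts in the p65 KO, and 4, 10 and 9 in the DKO. It rose in the p65 KO by 2.43 ± 0.717 (adjusted p = 0.0481). Cenpf, a large protein of the outer kinetochore, rested on 1 library. It had 2, 0 and 10 control counts, 1 and 2 in the Nrf2 KO, 14 and 153 in the p65 KO, and 34, 6 and 8 in the DKO, and the rise of 4.29 ± 1.16 in the p65 KO (adjusted p = 0.0336) came mostly from p65 KO 2, without which it was 1.83 ± 1.37 (adjusted p = 0.424). The checkpoint kinases Bub1 and Ttk, the checkpoint protein Bub1b and the microtubule-binding Ndc80 and Nuf2 were not called. Bub1 had 0 to 1 count in the control libraries and none in the Nrf2 KO, against 9 and 12 in the p65 KO and 4, 0 and 6 in the DKO. Bub1b, which had 8, 6 and 18 control counts and 7 and 12 in the Nrf2 KO, reached 27 and 26 in the p65 KO but 3, 18 and 18 in the DKO, where it overlapped with control. Ttk and Nuf2, at 0 in both Nrf2 KO libraries, had 8 and 25 and 9 and 22 counts in the p65 KO. Nuf2 had 8, 7 and 24 counts in the DKO, and Ttk 11, 3 and 18. Ndc80, the partner of Nuf2 at the kinetochore, had 9 and 7 counts in the p65 KO and 0 to 4 in every other library.

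Both genes of the anaphase-promoting complex route rose in the p65 KO. Cdc20, its activator, had 14, 14 and 29 counts in the control, 1 and 19 in the Nrf2 KO, 79 and 110 in the p65 KO, and 42, 28 and 63 in the DKO. Ube2c, the ubiquitin-conjugating enzyme that serves it, had 6, 4 and 3 counts in the control, 0 and 3 in the Nrf2 KO, 32 and 48 in the p65 KO, and 15, 13 and 37 in the DKO. Their log2 fold changes over control were 2.28 ± 0.643 (adjusted p = 0.038) and 3.11 ± 0.76 (adjusted p = 0.0227).

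Of the 3 genes of chromosome structure, Mki67 and Top2a were called. Mki67, the proliferation marker Ki-67 that coats mitotic chromosomes (chr7:135291513-135318299), had 14, 12 and 16 counts in the control, 3 and 3 in the Nrf2 KO, 64 and 98 in the p65 KO, and 42, 36 and 75 in the DKO. The 4 genotypes did not overlap except for the p65 KO and DKO. Mki67 rose by 2.48 ± 0.427 in the p65 KO (adjusted p = 0.00561) and by 2.00 ± 0.401 in the DKO (adjusted p = 0.0196), both over control. Top2a, the topoisomerase that untangles sister chromatids, had 15, 3 and 16 counts in the control, 2 and 7 in the Nrf2 KO, 61 and 83 in the p65 KO, and 38, 27 and 69 in the DKO. It rose by 2.61 ± 0.638 in the p65 KO (adjusted p = 0.0228). Ncapg, a subunit of condensin, had 1, 5 and 6 counts in the control, 1 and 0 in the Nrf2 KO, 18 and 22 in the p65 KO, and 14, 9 and 26 in the DKO, and was not called.

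The chromosomal passenger complex, which corrects attachments and directs cytokinesis, had no called gene. Aurkb, its kinase, had 10, 8 and 7 counts in the control, no count in the Nrf2 KO, 11 and 18 counts in the p65 KO, and 10, 9 and 44 in the DKO. The Nrf2 KO level was at least 6.26-fold lower than control against a floor of 3 counts summed over the genotype (adjusted p = 0.192). Between p65 KO and control its log2 fold change was smaller than its error, 0.73 ± 0.816 (adjusted p = 0.579). Birc5, or survivin, had the highest level of all 34 genes per kilobase of transcript in the control, p65 KO and DKO, at 27.1, 93.9 and 49.3 normalized counts per kb, and in the Nrf2 KO the highest was Cdca8 at 10.6. Its counts were 28, 5 and 47 in the control, 9 and 6 in the Nrf2 KO, 62 and 128 in the p65 KO, and 29, 48 and 53 in the DKO. Birc5 was thus spread widely over the control libraries and overlapped between control and Nrf2 KO and between control and DKO. Cdca8, or borealin, had 20, 10 and 28 counts in the control, 21 and 17 in the Nrf2 KO, 24 and 64 in the p65 KO, and 25, 23 and 38 in the DKO, and overlapped between control and every other genotype.

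Among spindle and cytokinesis genes, Hmmr and Prc1 were called. Hmmr, a microtubule-associated protein of the spindle poles (chr11:40592167-40624288), had 3 counts in each control library, 1 in each Nrf2 KO library, 28 and 58 in the p65 KO, and 10, 11 and 31 in the DKO. It rose by 3.74 ± 0.696 in the p65 KO (adjusted p = 0.00779) and by 2.64 ± 0.665 in the DKO (adjusted p = 0.0451). Prc1, which bundles microtubules at the spindle midzone, had 5, 4 and 17 counts in the control, 2 and 7 in the Nrf2 KO, 51 and 40 in the p65 KO, and 19, 20 and 33 in the DKO, and rose by 2.38 ± 0.64 in the p65 KO (adjusted p = 0.0324). Kif11, the motor that separates spindle poles, had 25, 30 and 27 counts in the control, 18 and 32 in the Nrf2 KO, 41 and 63 in the p65 KO, and 25, 30 and 26 in the DKO, so that its DKO and control libraries overlapped. Anln, a scaffold of the contractile ring, departed from the rest: it had 6, 8 and 5 counts in the control, 4 and 34 in the Nrf2 KO, 13 and 28 in the p65 KO, and 5, 6 and 14 in the DKO. Its high Nrf2 KO mean came from 1 library. The remaining spindle genes Tpx2, Kif2c, Kif4, Nusap1 and Dlgap5 and the midzone genes Kif20a, Kif23 and Ect2 were not called.

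Tpx2, which activates Aurora A on the spindle, had 6, 2 and 14 counts in the control, 2 and 3 in the Nrf2 KO, 28 and 51 in the p65 KO, and 14, 24 and 55 in the DKO. Dlgap5, a stabilizer of kinetochore fibres, had 2, 2 and 9 counts in the control, none in the Nrf2 KO, 6 and 17 in the p65 KO, and 22, 7 and 16 in the DKO. Dlgap5 was 1 of the 6 genes with the highest mean in the DKO. Nusap1, which bundles microtubules near chromosomes, had 2 to 12 counts in the control, 3 and 3 in the Nrf2 KO, 27 and 19 in the p65 KO, and 9, 19 and 31 in the DKO. The kinesins Kif2c and Kif4 had few counts, 1 to 9 and 2 to 6 in the control against 11 and 25 counts for each in the p65 KO. In the DKO they had 5 to 10 and 2 to 13 counts and overlapped with control. Kif20a, a kinesin of the midzone, had 24, 33 and 42 counts in the control, 22 and 16 in the Nrf2 KO, 76 and 90 in the p65 KO, and 49, 127 and 64 in the DKO. Its libraries did not overlap between Nrf2 KO and control or between DKO and control. Ect2, the exchange factor that activates RhoA at the division site, had 41, 27 and 65 counts in the control, 19 and 34 in the Nrf2 KO, 63 and 95 in the p65 KO, and 34, 27 and 70 in the DKO. Kif23, a partner of Racgap1 in the centralspindlin complex, had 0 to 10 counts in every library.

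**Figure D2:**
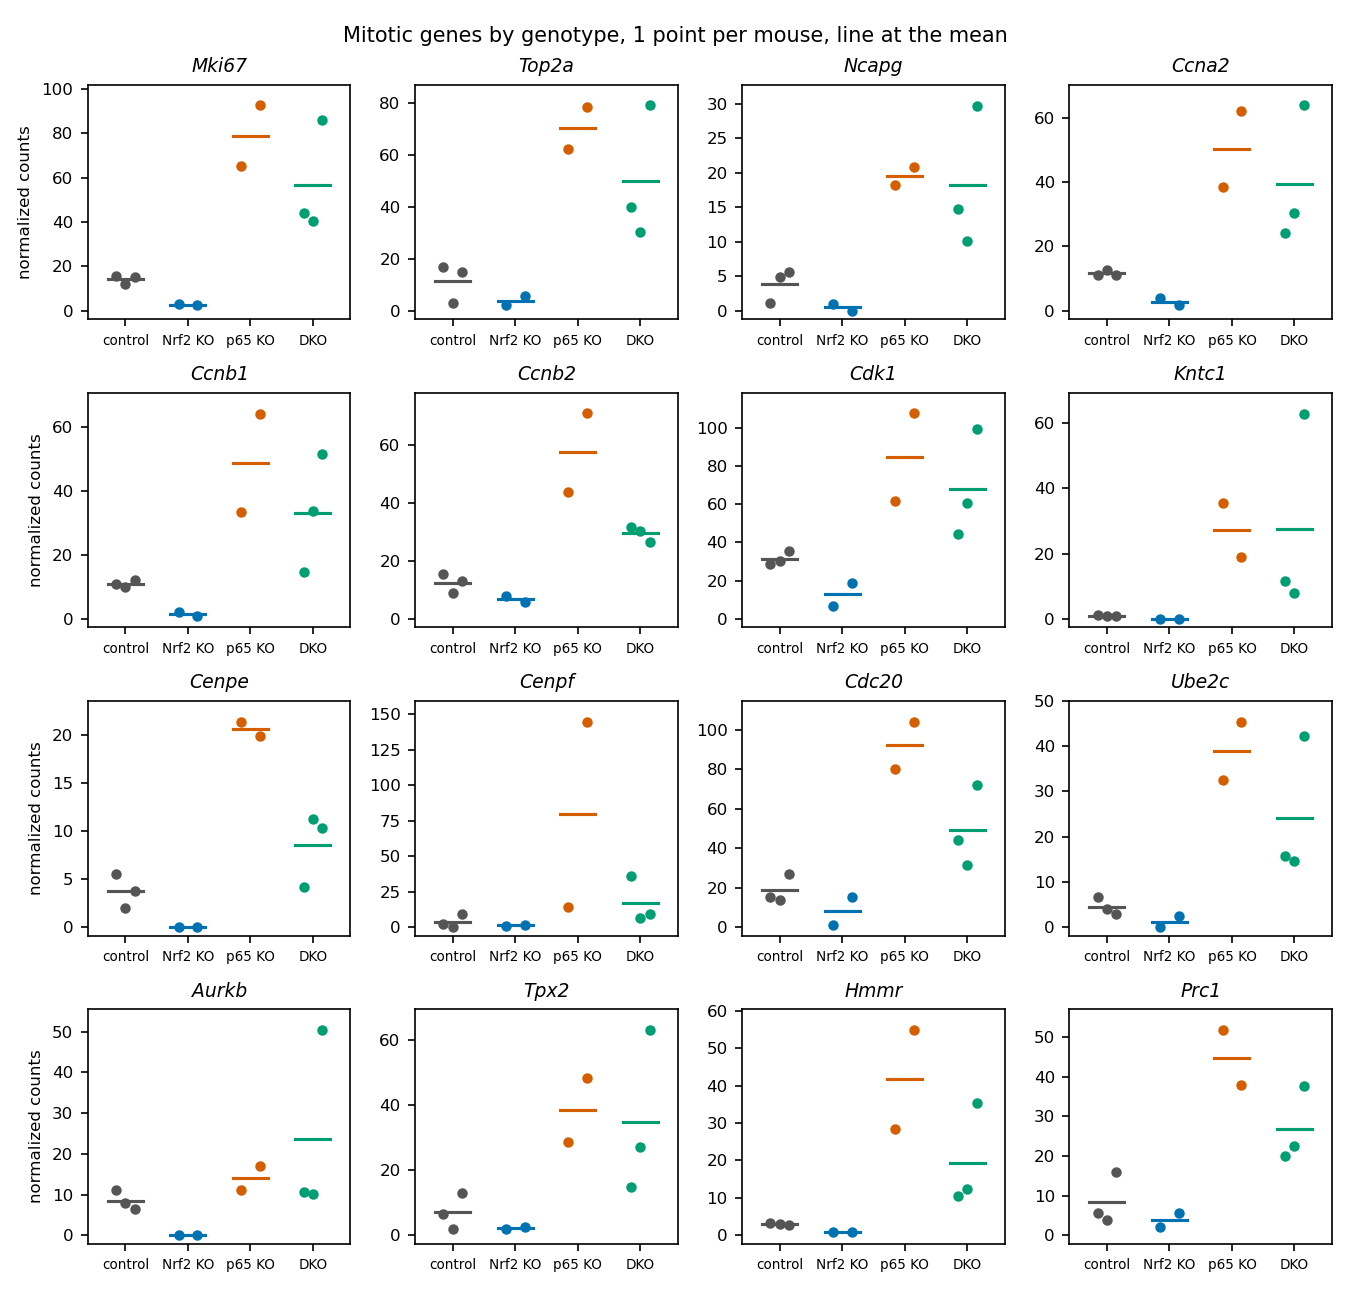
Normalized counts (estimated counts divided by relative library size) of 16 of the genes on the y axis, with the 4 genotypes on the x axis, 1 point per mouse and a line at the mean. The Nrf2 KO mean is the lowest in each panel, and the p65 KO points lie above control in all 16.

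Of the comparisons with control, that of the p65 KO had the most called genes. In the p65 KO 12 of the 34 were called higher and none lower, against a background of 5.05% of all tested genes called higher, and all 34 had a fitted value above 0. The median log2 fold change was 2.10 (range 0.73 to 4.60), while that of all genes was 0.00 and that of 3084 genes with similar mean counts (2 to 60) was 0.68. For 31 genes every p65 KO library was above every control library, where 26.2% of all genes were. The exceptions were Kif23, Cdca8 and Dlgap5. Leaving out control 1, 2 or 3 left 4, 4 and 7 called. Of all genes, 346, 500 and 517 were then called higher, against 689 with all libraries. Without p65 KO 1 or p65 KO 2 that genotype had 1 library, and 33 and 34 of the fitted values were above 0. Mki67 and Hmmr kept their calls in the p65 KO under all 19 alternatives.

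In the DKO 3 genes passed the test, all higher than control. Mki67, Kntc1 and Hmmr were called higher than control (3 of 34, against 1.36% of all genes), and all 34 fitted values were above 0 with a median of 1.53 (range 0.12 to 4.61), against 0.02 for all genes and 0.60 for the 3084. For 16 genes the DKO and control libraries did not overlap, against 13.2% of all genes in that direction. The count of 3 became 0 without control 1 or without control 2 and 1 without control 3 or without DKO 3. Of all genes, 63, 89, 129 and 166 were called higher in the same order, against 186 with all libraries. The single libraries DKO 1, DKO 2 and DKO 3 had 23, 25 and 31 of the genes above all control libraries. The same count was not made over all genes, so these numbers stand without a background.

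Nrf2 deficiency alone gave lower values with no call by edgeR. None of the 34 was called, against 0.44% of all genes called lower, and 32 had a fitted value under 0. DESeq2 called 1 (Aurkb) and limma none. At an unadjusted p under 0.05, 10 genes were lower (5.07% of all genes), and in 14 genes both Nrf2 KO libraries were below every control library (13.6% of all genes). These 14 were Mki67, Ccna2, Ccnb1, Ccnb2, Cdk1, Aurkb, Ube2c, Ncapg, Kntc1, Cenpe, Kif20a, Nuf2, Hmmr and Dlgap5. Ube2c and Ncapg had a tie in raw counts between the genotypes and were separated only by library scaling, and Kntc1 was separated by a single count per library. The median log2 fold change was -1.50, or -1.27 over 32 genes with those at 0 in the Nrf2 KO placed at their bounds, against 0.00 for all genes. Mki67 had -2.34 ± 0.58 (adjusted p = 0.132) and Cdk1 -1.28 (adjusted p = 0.461). In 7 genes both Nrf2 KO libraries were at 0, and 14 genes had 3 counts or fewer over both, so a further decrease was not measurable at this depth. Beside Aurkb, the bounds were at least 3.26-fold lower for Dlgap5, 3.00-fold for Nuf2, 2.75-fold for Cenpe and 1.75-fold for Ttk, and no fold is given for Kntc1 and Bub1, which were at or under the floor in the control as well. The ratio of Ccnb1 in the Nrf2 KO to control was 0.121 (95% exact interval 0.0237 to 0.386, counting error only).

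**Figure D3:**
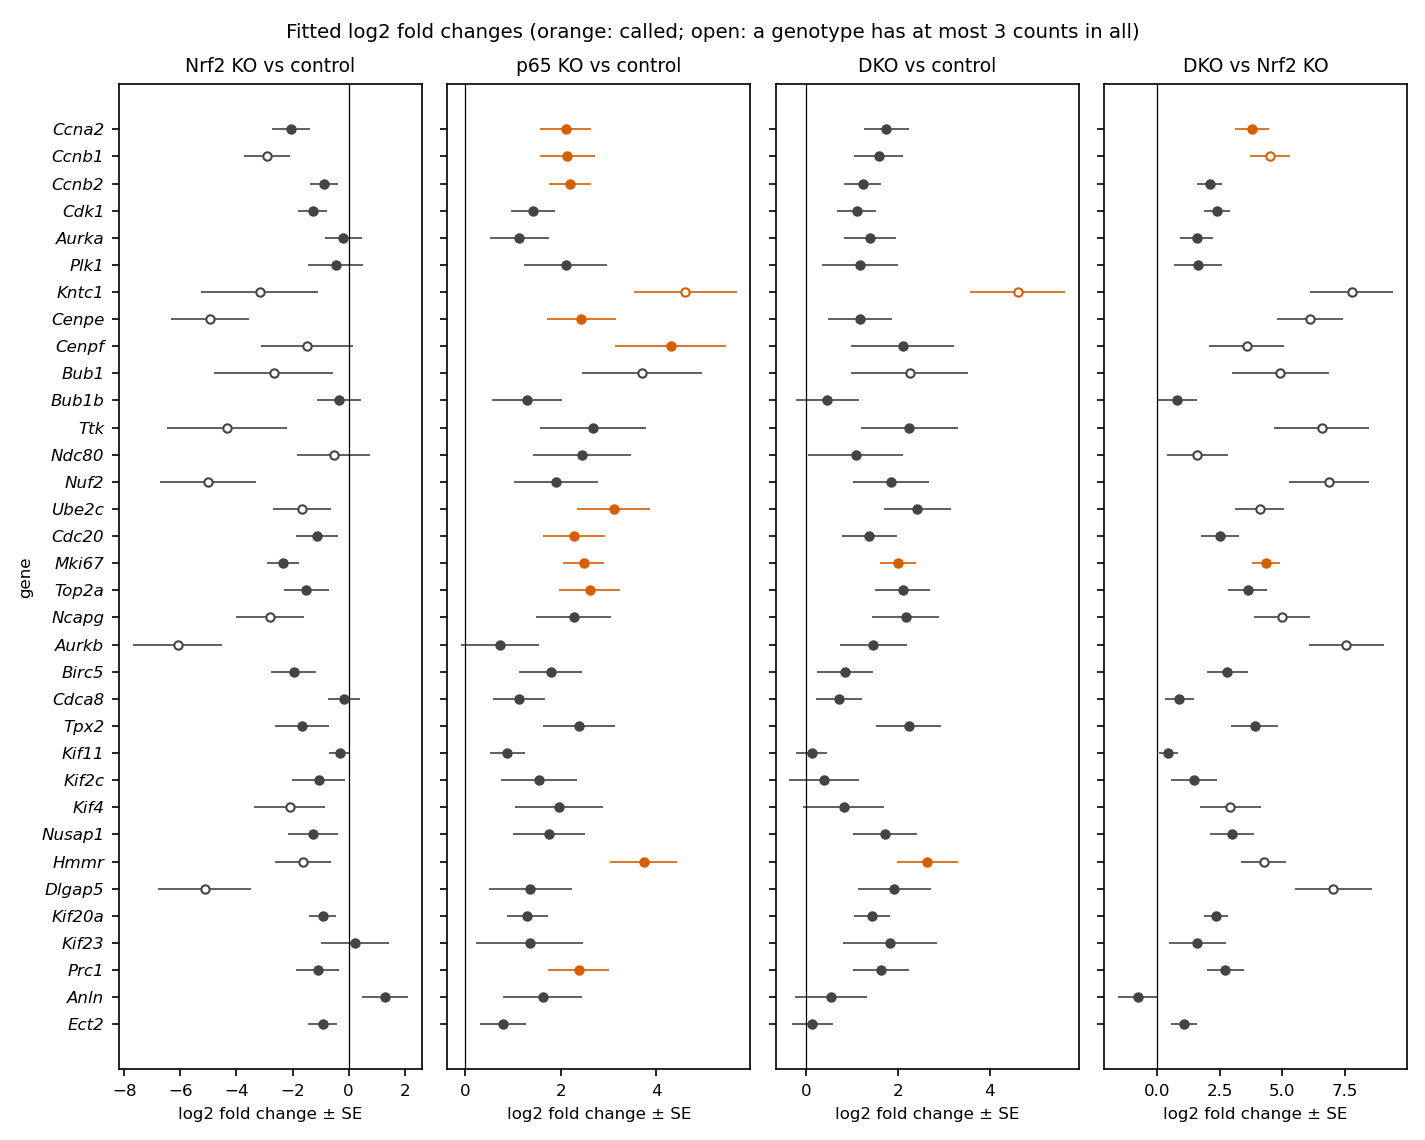
Log2 fold change with its SE on the x axis for each gene on the y axis, in 4 comparisons with separate x scales. Orange marks the called genes (12 in p65 KO and 3 each in the DKO panels) and open points have 3 counts or fewer in 1 genotype, where the fitted value depends on a small prior count.

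The comparison of DKO with Nrf2 KO sets mice floxed for both genes beside mice floxed for Nrf2 alone. Mki67 rose by 4.34 ± 0.569 (adjusted p = 0.00835), Ccnb1 by 4.50 ± 0.801 (adjusted p = 0.0369) and Ccna2 by 3.80 ± 0.678 (adjusted p = 0.037). The Ccnb1 fold rests on 3 Nrf2 KO counts, and its ratio was 24.6 (95% exact interval 8.14 to 121, counting error only). These 3 were the only genes of the 34 called, against 0.293% of all genes called higher, while DESeq2 called 21 and limma 12, and edgeR with no filter 9. Calls over all genes rose as well. Of 13641 genes DESeq2 called 233 higher and limma 61, where edgeR called 40, and edgeR with no filter called 80 of 15637. The libraries did not overlap in normalized counts for 31 genes, all but Bub1, Bub1b and Anln, against 15.8% of all genes. Among the 31, Ndc80, Kif4, Kif11 and Ect2 were tied or overlapped in raw counts and were separated only by library scaling. Genes at 0 in the Nrf2 KO had pooled DKO levels at least 20.1-fold higher for Kntc1, 17.4-fold for Aurkb, 12.4-fold for Dlgap5, 10.8-fold for Nuf2, 8.83-fold for Ttk, 6.35-fold for Cenpe and 2.76-fold for Bub1. These bounds cover the floor and not the spread between mice. In the DKO Kntc1 had 11, 7 and 55 counts, Aurkb 10, 9 and 44, and Bub1 4, 0 and 6. With the genes at 0 placed at their bounds the median log2 fold change was 2.77, against 0.01 for all genes and 0.55 for the 3084 of similar counts. Leaving out control 1, control 3 or DKO 3 left 1 called, while 41, 45 and 42 of all genes were called higher. Without Nrf2 KO 1 or Nrf2 KO 2 that genotype had 1 library, and 33 and 34 of the fitted values were above 0.

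Between DKO and p65 KO no mitotic gene was called, against 1.78% of all genes in either direction, and DESeq2 and limma called none either. Their fitted values were below 0 for 28 of 34 with a median of -0.61, while that of the 3084 genes of similar counts was -0.28. At an unadjusted p under 0.05 1 gene, Ccnb2, was lower (22.5% of all genes in either direction), and for 10 genes all DKO libraries were below both p65 KO libraries (20.1% of all genes). Cenpf had the lowest fitted value, -2.19 ± 1.03 (adjusted p = 0.238).

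Whether the Nrf2 effect differed with and without p65 was tested as an interaction, and none of the 34 genes was called by edgeR or limma, against 0.455% of all genes, while DESeq2 called 1 (Aurkb). The fitted interaction was above 0 for 25 genes (22 to 25 under the scalings tried, 19 with the replicate block and 21 to 28 with 1 library left out), and 6 genes had an unadjusted p under 0.05, all positive, against 7.29% of all genes: Mki67, Ccnb1, Aurkb, Cenpe, Nuf2 and Dlgap5. For Mki67 it was 1.87 ± 0.711 (adjusted p = 0.293). Of the others, Aurkb, Cenpe, Nuf2 and Dlgap5 were at 0 in both Nrf2 KO libraries.

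**Figure D4:**
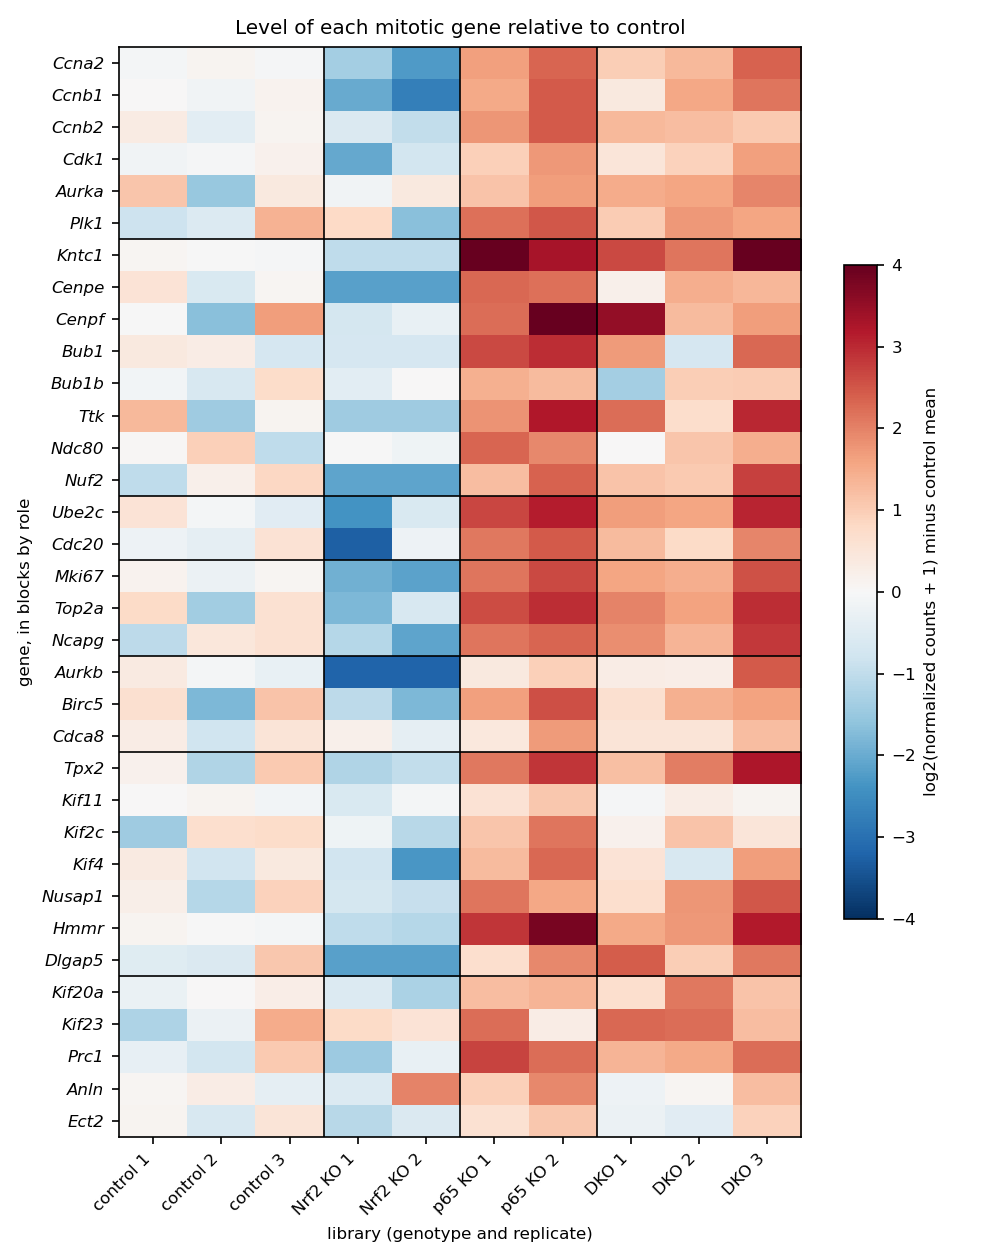
Each row is a gene, in blocks by role, and each column a library. Colour is log2(normalized counts + 1) minus the control mean, with values beyond 4 drawn as 4, and the Nrf2 KO columns are mostly blue while the p65 KO and DKO columns are mostly red.

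The study itself named 9 of these genes as proliferation genes, Cdk1, Ccnb1, Aurkb, Ube2c, Ncapg, Mki67, Top2a, Tpx2 and Kntc1. It chose them on these samples, among genes that DESeq2 found to differ between genotypes, so their counts are not independent evidence. The study also stained liver sections for Ki67, the protein of Mki67. It reported decreased hepatocyte proliferation in Nrf2 KO mice and a rescue by additional deletion of p65. That staining is separate from the RNA counts and was not examined here. The calls below are those of edgeR, a different test from the DESeq2 of the study. Of the 9, none was called in the Nrf2 KO (5 had an unadjusted p under 0.05), 5 in the p65 KO and 2 in the DKO against control, and 2 in the DKO against Nrf2 KO. Of all tested genes, 5.05%, 1.36% and 0.293% were called higher in the last 3 comparisons. In the Nrf2 KO 5.07% of all genes were lower at an unadjusted p under 0.05.

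Lists of related genes were also read beside them. Of 73 other G2/M genes, 4 were called higher in the p65 KO, Ckap2l (3.27), Wee1 (3.00), Ckap2 (2.98) and Racgap1 (2.53, log2 fold changes), with a median of 0.91. This share, 5.48%, is close to the 5.05% of all tested genes, and the median of the 3084 genes of similar counts was 0.68. Wee1, the kinase that holds Cdk1 inactive, had 104, 75 and 161 counts in the control, 68 and 145 in the Nrf2 KO, 606 and 1261 in the p65 KO, and 124, 107 and 297 in the DKO, and it was lower in the DKO than in the p65 KO by a log2 fold change of -2.20 (adjusted p = 0.0288). No other G2/M gene was called in the Nrf2 KO or DKO against control, or in the DKO against Nrf2 KO, where the medians were -0.47, 0.59 and 0.97. Of 50 S phase genes, 5 were called higher in the p65 KO, among them Ccne1 (3.44), Brca1 (2.37) and Ccne2 (1.73), and 1 in the DKO, Brca1 (2.70), with medians of 0.47 and 0.69. These are 10% and 2% of the list, against 5.05% and 1.36% of all genes. Between DKO and p65 KO Ccne1 was lower (-2.03, adjusted p = 0.0235) and Pold1 higher (1.15, adjusted p = 0.0443). The cell cycle transcription factors had 1 call in 24, E2f8, an atypical repressor of E2F targets, which fell in the DKO by 1.54 on the log2 scale (adjusted p = 0.0458). Its log2 fold changes in the Nrf2 KO and p65 KO were -1.72 (adjusted p = 0.173) and -1.45 (adjusted p = 0.0518). Foxm1, an activator of G2/M genes picked here after its values were seen, had 5, 9 and 10 counts in the control, 3 and 2 in the Nrf2 KO, 27 and 34 in the p65 KO, and 6, 13 and 16 in the DKO (adjusted p = 0.056 for the p65 KO against control). Mybl2, of the same list and also picked afterwards, had 14, 7 and 6 counts in the control and 7 and 6 in the p65 KO. Its log2 fold change there was -0.52 (adjusted p = 0.661). The median of the 24 factors in the p65 KO was 0.05.

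Markers of several other liver cells were also highest in the p65 KO. The summed normalized counts of 12 Kupffer cell markers were 368, 957 and 740 in the control, 814 and 254 in the Nrf2 KO, 6190 and 4516 in the p65 KO, and 2905, 2041 and 1715 in the DKO. All 12 were called higher in the p65 KO and 6 in the DKO against control, and none in the Nrf2 KO. Of all tested genes 5.05% were called higher in the p65 KO and 1.36% in the DKO, the background of each list below. Within each genotype the library with the highest Kupffer sum had the lowest mitotic sum. Endothelial and stellate sums did not follow 1 order: control 3 was the highest control library for both lists and for the mitotic genes, and DKO 2 was the highest DKO library for both lists. Endothelial markers summed to 856 to 1759 in the control, 1032 to 2049 in the Nrf2 KO, 4394 to 6392 in the p65 KO and 2240 to 3300 in the DKO, with 10 of 10 called in the p65 KO and 2 in the DKO. Stellate cell markers summed to 258 to 498, 208 to 402, 2576 to 2658 and 486 to 1240 in the same order, with 8 of 10 called in the p65 KO and 1 in the DKO. Among immune lists, the p65 KO had 2 of 8 tested monocyte and dendritic cell markers called. The DKO had 1 of 6 T and NK cell markers called, Cd4. Cd4 had 21, 35 and 15 counts in the control, 63 and 72 in the Nrf2 KO, 17 and 24 in the p65 KO, and 132, 67 and 56 in the DKO. Cd3e, Cd3d, Cd3g, Trac and Cd8a had 0 to 9 counts in every library. None was called of the B cell, neutrophil and cholangiocyte lists. Of 3 tested neutrophil markers, 2 had an unadjusted p under 0.05 in the DKO against control (median log2 fold change 3.52). So did 3073 of all 13641 tested genes, in either direction. S100a9 had 11, 8 and 5 counts in the DKO and 3, 1 and 0 in the control, Ngp 6, 5 and 2 against none, and Ly6g was at 0 in every library. Globin transcripts were highest in DKO 1 (1141 normalized counts) and not in DKO 3, and none of 7 tested erythroid markers was called. In the DKO against control 3 of these 7 had an unadjusted p under 0.05, against Nrf2 KO 4 and against p65 KO 5 (median log2 fold change 2.87). Of all 13641 tested genes 3073, 1961 and 3066 did so in the same comparisons, in either direction. Of the other erythroid genes, Rhag was at 0 in all libraries, Slc4a1 had 8 counts in DKO 1 and 0 elsewhere, Klf1 had 29 to 62 counts and Alas2 2991 to 4384. Of 10 hepatocyte markers none was called in the Nrf2 KO or p65 KO and 1, Tat, in the DKO. Which cells carried the mitotic transcripts cannot be read from these bulk libraries, and the part of the other cell types in the result was not tested.

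**Figure D5:**
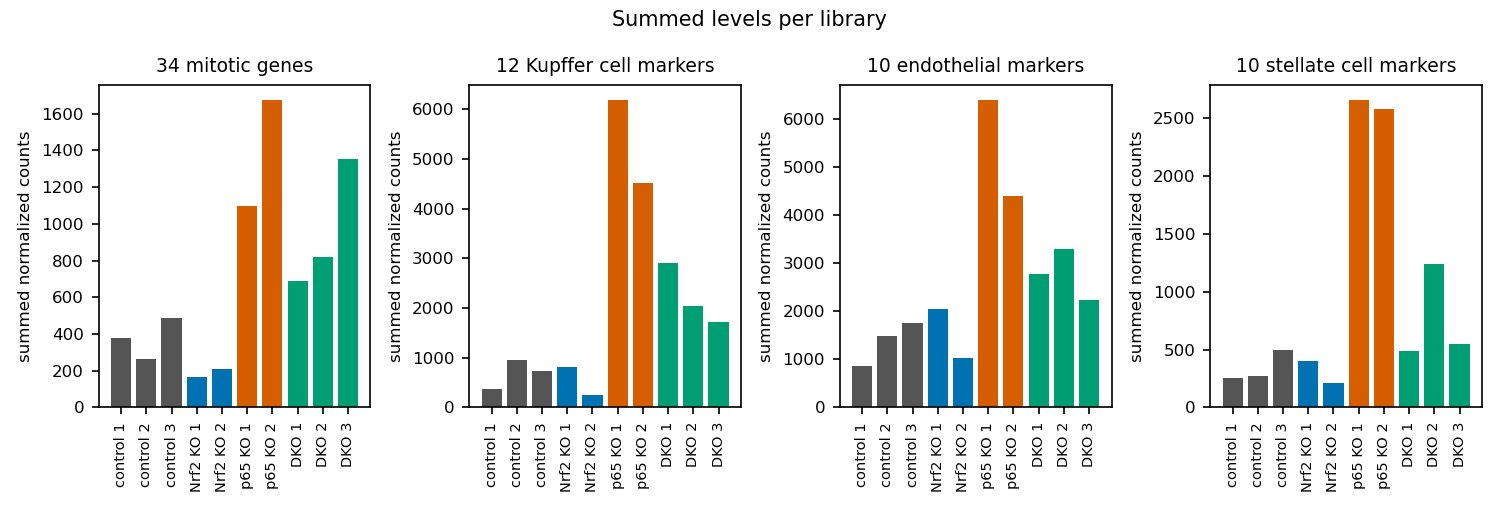
Summed normalized counts per library of the 34 mitotic genes and of Kupffer cell, endothelial and stellate cell markers, each bar 1 library coloured by genotype. Both p65 KO bars are the tallest for the 3 marker lists, while for the mitotic genes DKO 3 (1353) lies between them (1095 and 1676). DKO 3 has the tallest DKO bar for the mitotic genes and the shortest for the Kupffer markers.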

How the data were processed

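RNA-seq of poly-A RNA was done on hepatocytes of 10 male mice (control 3, Nrf2 KO 2, p65 KO 2, DKO 3), 1 library per mouse. The authors quantified stranded single-end reads with Salmon (1.10.3) against GRCm39 and GENCODE M33 and deposited 1 table of estimated counts per gene, whole numbers whose totals differ between libraries; the step from transcripts to genes is not given in the sources used here. Per the processing notes, the authors used DESeq2 (1.42.1). Columns of the table were matched to libraries by their labels.

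Symbols and coordinates were taken from GENCODE M39 (GRCm39, the build of the files), which named 21926 of 21939 identifiers; 6302 genes were at 0 in all libraries. The 13641 genes with a total of 10 counts or more were fitted with edgeR (4.0.16, R 4.3.3) under TMM normalization, in 1 quasi-likelihood model of all 10 libraries with genotype as the only term, and the interaction was a contrast of the 4 genotypes. The SE is the log2 fold change divided by the square root of F. Calls required an adjusted p of 0.05 or less together with a change of 1 or more on the log2 scale. Normalized counts are the deposited counts divided by relative effective library size. Overlap of libraries was read on normalized counts, so low raw counts that are tied can appear as separated. Where a genotype had no count a floor of 3 counts over the genotype gave a bound, and with 1 to 3 counts an exact 95% binomial interval of the ratio is given, for counting error only. Every member was accounted for, with values per library for the 9 genes named by the study and for each called member and others as examples of their role. Of related lists, up to 3 called genes with the largest change were named per comparison, and Racgap1, Foxm1 and Mybl2 were added after their values were seen.

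The members and lists were chosen with earlier results of these data known. The fit was tested on simulated data, where 94% to 96.5% of the changed genes were recovered. Those genes were drawn from higher mean counts than many members had, so the low-count range was not covered. Alternatives were DESeq2 (1.42.0), limma (3.58.1, log2 of normalized counts + 1), other scalings and filters, a replicate block, fits of 2 genotypes only and leaving out each library. No batch is given in the labels. Figures were drawn with matplotlib (3.10.9) under Python 3.11.15. Same-numbered libraries are separate mice, so p-values measure the spread between mice.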

Additional observations from a re-analysis of the deposited data

How the results depend on the processing

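Directions of the medians did not change under any alternative that could be run, but counts of calls depended on the tool and on single libraries. Called genes against control in the Nrf2 KO were 0 in edgeR and 1 with DESeq2. In the p65 KO 12 were called, 17 with DESeq2, and 3 to 14 when 1 library was left out. In the DKO against control 3 were called, 8 with DESeq2, 5 with no filter, 0 when only those 2 genotypes were fitted, and 0 to 4 when 1 library was left out. In the DKO against Nrf2 KO 3 were called, 21 with DESeq2, 12 with limma, 9 with no filter, 1 with the replicate block, 0 with only those 2 genotypes and 0 to 4 when 1 library was left out; the median log2 fold change of the 34 genes then ranged from 2.56 to 3.47. The interaction had 0 calls and 1 with DESeq2, and its median of 0.97 was 0.12 with the replicate block. Calls over all 13641 genes depended on the tool too. In the p65 KO against control, 689 were called higher in edgeR and 833 with DESeq2. In the DKO against control these were 186 and 359, and in the DKO against Nrf2 KO 40 and 233. Why these settings differ was not tested. The labels give no pairing of the mice by replicate number. Over 13 same-numbered pairs the correlations of deviations were -0.179 to 0.119, with 2 over 0.1. Deviations in a genotype with 2 mice mirror each other, so those 2 are the same value. The correlations therefore cannot decide whether same-numbered mice were paired. The block changed no other count of called genes by more than 1.5 times; with it 5 genes in place of 2 were above control in the Nrf2 KO, and 15 in place of 9 had a negative interaction. Scaling by equal totals moved the median of all genes by 0.18 in the p65 KO against control, and by -0.27 in the DKO against p65 KO and in the interaction, while the mitotic genes above control stayed 34 of 34 in the p65 KO and DKO under every scaling. Without DKO 3, 31 of the 34 were above control in the DKO, and without control 1 or control 2 33 were; without p65 KO 1 33 were in the p65 KO; without control 3 28 were below control in the Nrf2 KO and 21 had a positive interaction (28 without p65 KO 2), and without Nrf2 KO 2 all 34 were above it in the DKO. Over the called genes 90 of 341 alternatives lost the call and none reversed. A minimum mean of 10 counts left 25 of the genes. The 14 genes with 3 counts or fewer in the Nrf2 KO set the limit of what this depth can show.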
